A study of Homo sapiens with 9 samples.

Results

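Trimethylation of lysine 4 on histone H3 (H3K4me3) was profiled with CUT&RUN, in which antibody-tethered nuclease releases marked DNA, in the human erythroleukemia line HEL, and the regions on the short arm of chromosome 9 are described here. Peaks of all 9 libraries that shared at least 1 bp were merged, and a region was kept when it lay on chromosome 9 with its start below 39 Mb. This gave 331 regions of 30404 in the genome, against 891 on the long arm of the same chromosome. The regions were chosen by position and by having a peak in any library, and the arm was picked because earlier results had shown strong knockout-only peaks there, so its shares, ranks and signal ratios are given as descriptions with no test. The last region inside the limit, chr9:38392359-38393680, had NTC signals of 4067, 3550 and 3822 and no KO peak. The first region outside it, chr9:41953893-41955200, had NTC signals of 5794, 5098 and 6692 and 1 METTL3-KO peak of 200.

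The 4 groups were all HEL cells carrying a CRISPR vector. The control group carried NTC guides that target no gene (3 libraries), and the others carried guides against METTL3, METTL14 or WTAP (2 libraries each, METTL3-KO, METTL14-KO and WTAP-KO). These 3 genes encode subunits of the m6A RNA methyltransferase. The labels do not say whether replicate libraries came from separate cultures, so p-values measure only the spread between these libraries, which may be technical. The vector was delivered by lentivirus, and whether the cells were a pool or a clone was not given for these libraries. The lists hold no measure of the targeted transcripts, so the knockouts were not checked here. As for the cell type, the erythroid factor genes GATA1, KLF1 and TAL1 were marked (a listed peak no more than 1 kb from a start) in all 3 NTC libraries, and in 0, 0 and 4 of the 6 KO libraries. The T cell gene CD3E and the liver gene ALB were marked in none of the 9.

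H3K4me3 is placed around the start sites of active genes by SET1 and MLL family methyltransferases, and it is read by factors that recruit the transcription machinery. The short arm of chromosome 9 holds JAK2, the kinase that signals downstream of the erythropoietin receptor, beside genes of immune checkpoint ligands and relaxin hormones, and further in the interferon cluster and the cell cycle inhibitors CDKN2A and CDKN2B. HEL cells are known to carry an activating JAK2 mutation with extra copies of this arm. Copy number was not measured in these libraries, and its part in the values below was not tested. In such bulk data extra copies of a region, a larger share of cells with the mark and more mark per cell cannot be told apart.

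A peak list records where a peak was listed, not how much signal lay elsewhere. In all 9 lists the peaks were 150 to 2000 bp wide. The NTC lists held 413, 431 and 463 peaks in the last 100 bp of that range and none wider, so a stretch of signal wider than that is not in them, and a region without an NTC peak is not shown to lack the mark. A value of 0 below means that no peak was listed. Signal is the calibrated signal that the authors deposited for each peak, summed over a region, and it carries no unit of fragments, so that depth is unknown.

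The sequences below are the windows behind the regions described first, from the hg19 genome, with each CG dinucleotide in capitals. They are the JAK2 start, which had no peak, the starts of the 3 regions with the highest KO signal and no NTC peak (HAUS6, RLN2 and ERMP1), the SMARCA2 start under the strongest region that was listed in every NTC library and no KO library, and the centre of the region with the highest NTC signal among those listed in all 9 libraries. Windows at a start hold 250 bases before it and 50 from it on, read along the gene.
JAK2, chr9:4985022-4985321, plus strand: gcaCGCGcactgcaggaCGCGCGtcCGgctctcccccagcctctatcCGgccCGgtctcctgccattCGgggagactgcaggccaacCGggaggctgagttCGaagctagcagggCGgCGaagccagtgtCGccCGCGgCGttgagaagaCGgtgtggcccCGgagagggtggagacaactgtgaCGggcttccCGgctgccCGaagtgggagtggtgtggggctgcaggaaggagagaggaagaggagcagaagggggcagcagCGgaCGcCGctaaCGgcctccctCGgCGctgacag
HAUS6, chr9:19102853-19103152, minus strand: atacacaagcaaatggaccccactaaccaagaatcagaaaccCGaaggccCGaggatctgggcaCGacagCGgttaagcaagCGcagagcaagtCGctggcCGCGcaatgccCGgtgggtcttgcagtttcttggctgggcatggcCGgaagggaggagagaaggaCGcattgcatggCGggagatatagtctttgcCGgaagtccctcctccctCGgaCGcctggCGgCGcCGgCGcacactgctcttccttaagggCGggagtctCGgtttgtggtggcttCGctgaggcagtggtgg
RLN2, chr9:5304667-5304966, minus strand: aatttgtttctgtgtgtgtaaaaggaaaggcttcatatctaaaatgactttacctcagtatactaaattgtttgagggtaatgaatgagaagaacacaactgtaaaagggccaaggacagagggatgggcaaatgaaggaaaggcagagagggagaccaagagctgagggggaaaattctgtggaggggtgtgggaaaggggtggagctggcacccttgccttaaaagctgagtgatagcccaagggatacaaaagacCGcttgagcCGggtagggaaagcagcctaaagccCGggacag
ERMP1, chr9:5833068-5833367, minus strand: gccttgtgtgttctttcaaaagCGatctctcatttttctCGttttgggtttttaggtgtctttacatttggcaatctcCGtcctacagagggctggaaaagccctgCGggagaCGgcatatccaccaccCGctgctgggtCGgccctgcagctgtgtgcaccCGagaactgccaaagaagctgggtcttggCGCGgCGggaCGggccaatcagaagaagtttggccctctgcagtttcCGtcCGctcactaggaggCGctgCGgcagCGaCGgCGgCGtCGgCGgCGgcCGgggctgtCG
SMARCA2, internal start, chr9:2157433-2157732, plus strand: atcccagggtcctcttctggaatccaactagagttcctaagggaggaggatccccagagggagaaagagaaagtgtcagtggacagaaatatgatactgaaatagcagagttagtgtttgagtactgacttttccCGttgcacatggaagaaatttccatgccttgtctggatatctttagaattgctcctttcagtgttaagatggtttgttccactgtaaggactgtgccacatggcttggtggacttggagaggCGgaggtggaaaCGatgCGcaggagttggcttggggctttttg
Intronic region of ENSG00000286162, chr9:5608963-5609262, plus strand: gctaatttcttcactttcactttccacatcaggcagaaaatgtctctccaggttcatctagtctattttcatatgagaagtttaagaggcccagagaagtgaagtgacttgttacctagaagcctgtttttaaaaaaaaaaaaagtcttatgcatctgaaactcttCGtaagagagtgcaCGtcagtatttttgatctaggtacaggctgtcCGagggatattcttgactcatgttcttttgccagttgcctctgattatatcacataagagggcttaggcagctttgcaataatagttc
The JAK2, HAUS6 and ERMP1 windows held 28, 22 and 25 CG dinucleotides and were 69.0%, 61.0% and 60.3% G or C. The RLN2, SMARCA2 and intronic windows held 3, 4 and 3 CG dinucleotides and were 47.7%, 47.0% and 38.7% G or C. A strong listed peak was thus found over windows both rich and poor in CG, and the CG-rich JAK2 window had none.

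Regions were spread unevenly along the arm, and the KO signal more so. Below 33 Mb lay 214 regions, of which 69 (32.2%) had a KO peak and no NTC peak, and 38 had a mean KO signal over 5000. From 33 to 39 Mb lay 117 regions, of which 12 (10.3%) had a KO peak and no NTC peak, and none had a mean KO signal over 5000, the highest being 1145. NTC regions were present in both stretches, with a median NTC signal of 3473 over the 90 regions listed in all 3 NTC libraries below 33 Mb and 3212 over the 72 beyond it. The boundary at 33 Mb was set after the values were seen. The strongest NTC region of the outer stretch reached a mean of 80147, against 11079 in the inner one. The window from 5 to 10 Mb held 42 regions, of which 11 were listed in all 6 KO libraries, the most of any window of 5 Mb on the arm.

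The share of regions with a KO peak and no NTC peak was higher on the arm than over the whole genome. On the arm 81 of 331 regions (24.5%, exact 95% interval 19.9 to 29.5, counting error only) had at least 1 KO peak and no NTC peak, against 15.2% of all 30404 regions. A peak in all 6 KO libraries and no NTC peak was found in 20 arm regions (6.04%), against 2.49% of all regions. Of the 81 regions, 16 were listed in 1 KO library only, and 20, 10, 8 and 7 in 2, 3, 4 and 5. On the long arm of the same chromosome 73 of 891 regions (8.19%) had a KO peak and no NTC peak.

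Among 41 chromosome arms with at least 50 regions, the arm ranked 3 by this share. The short arms of chromosomes 10 and 6 stood above it, with 29.5% and 25.6%, and the long arms of chromosomes 3 and 13 and the short arm of chromosome 12 followed at 23.2%, 23.1% and 23.1%. The values of the latter 4 lay within the counting interval of the arm, and that of the short arm of chromosome 10 lay at its upper end. The signal set the arm further apart than the share did. Over regions listed in all 6 KO libraries the median of the mean KO signal was 10578 on the arm (33 regions) and 2874 in the rest of the genome (1439 regions), and the arm again ranked 3. The arms ranked above it held 7 and 1 such regions.

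**Figure D1:**
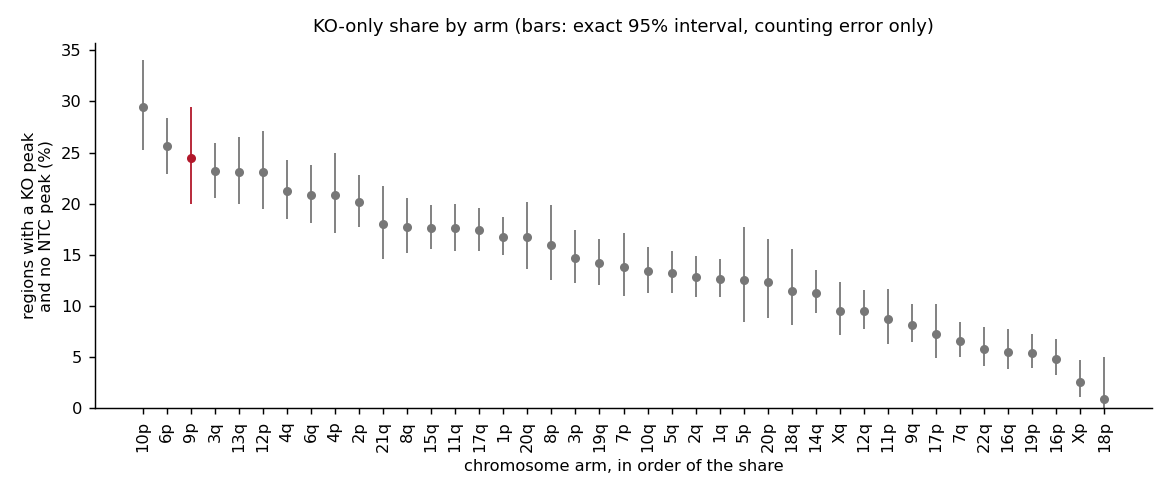
Share of regions with a KO peak and no NTC peak for 41 chromosome arms, in percent, with exact 95% intervals that cover counting error only. The short arm of chromosome 9 (red) ranked 3, and its interval of 19.9 to 29.5% overlaps those of several neighbours.

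The 20 regions with a peak in all 6 KO libraries and no NTC peak were chosen by that pattern, so their values are a description. The highest lay over the start of HAUS6, which encodes a subunit of the augmin complex of the mitotic spindle (chr9:19101772-19103353). Its signal was 40385 and 31126 in METTL3-KO, 29465 and 24786 in METTL14-KO and 21251 and 25403 in WTAP-KO. The METTL3-KO values were the highest, and those of METTL14-KO and WTAP-KO overlapped.

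The region over the start of RLN2, the gene of the hormone relaxin-2 (chr9:5303274-5304905), had signals of 39485 and 31176 in METTL3-KO, 26721 and 22639 in METTL14-KO and 18875 and 22285 in WTAP-KO. The near-identical RLN1 start (chr9:5338175-5340106) had almost the same KO values, from 19941 to 41407, and an NTC peak of 117052 in NTC 1 alone. RLN1 and RLN2 are close paralogs whose reads may have been shared between them, so the values of both are uncertain. ERMP1, the gene of a metallopeptidase of the endoplasmic reticulum (chr9:5831739-5833626), had 30784 and 20035 in METTL3-KO, 29111 and 21827 in METTL14-KO and 16132 and 18348 in WTAP-KO.

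The next regions were an intergenic one and the start of an innate immune gene. The intergenic region chr9:11063957-11065855, whose nearest coding start, that of PTPRD, was 450955 bp away, had signals from 15497 to 28671 over the 6 KO libraries. RIGI, the gene of a cytosolic sensor of viral RNA (chr9:32525353-32527136), had signals from 14833 to 29979. Below them came a region inside NFIB, a transcription factor of the nuclear factor I family (7010 to 21526), the start of LURAP1L (5642 to 20831), a start of FOCAD (8387 to 21940), the start of NDUFB6, a subunit of respiratory complex I (7431 to 21455), and a region inside the noncoding gene ENSG00000236924 (6743 to 16458). The weakest of the 20 lay over the start of RPS6, a protein of the small ribosomal subunit, at 7099 and 5718 in METTL3-KO, 3684 and 2136 in METTL14-KO and 2139 and 2368 in WTAP-KO. METTL3-KO 1 had the highest value in 32 of the 33 regions listed in all 6 KO libraries. That library also had the highest median over such regions in the rest of the genome, 6549 against 1084 to 3726 in the other KO libraries.

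Width moved with this pattern. The 20 regions had a median width of 1607 bp, and 17 of them (85.0%) were over 1300 bp, against 56.4% of the 737 such regions elsewhere in the genome. An NTC peak lay within 1 kb of 1 of the 20 regions. In each of the 7 arm regions listed in all 9 libraries the median NTC peak width exceeded the median KO peak width. The median of this difference over the 7 regions was 686.5 bp. The same held in each of the 6 regions listed in all 6 KO libraries and in 1 or 2 NTC libraries, with a median difference of 763 bp. In these 6 regions the median NTC width was 1918.5 bp, close to the 2000 bp at which the lists end. Among regions at most 1 kb wide, a choice made after seeing the data, 40 of 194 arm regions (20.6%) had a KO peak and no NTC peak against 16.6% in the rest of the genome, and the arm ranked 8 of 41. The part of the width limit in the KO-only calls was not tested, since signal outside the listed peaks was not analysed here.

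**Figure D2:**
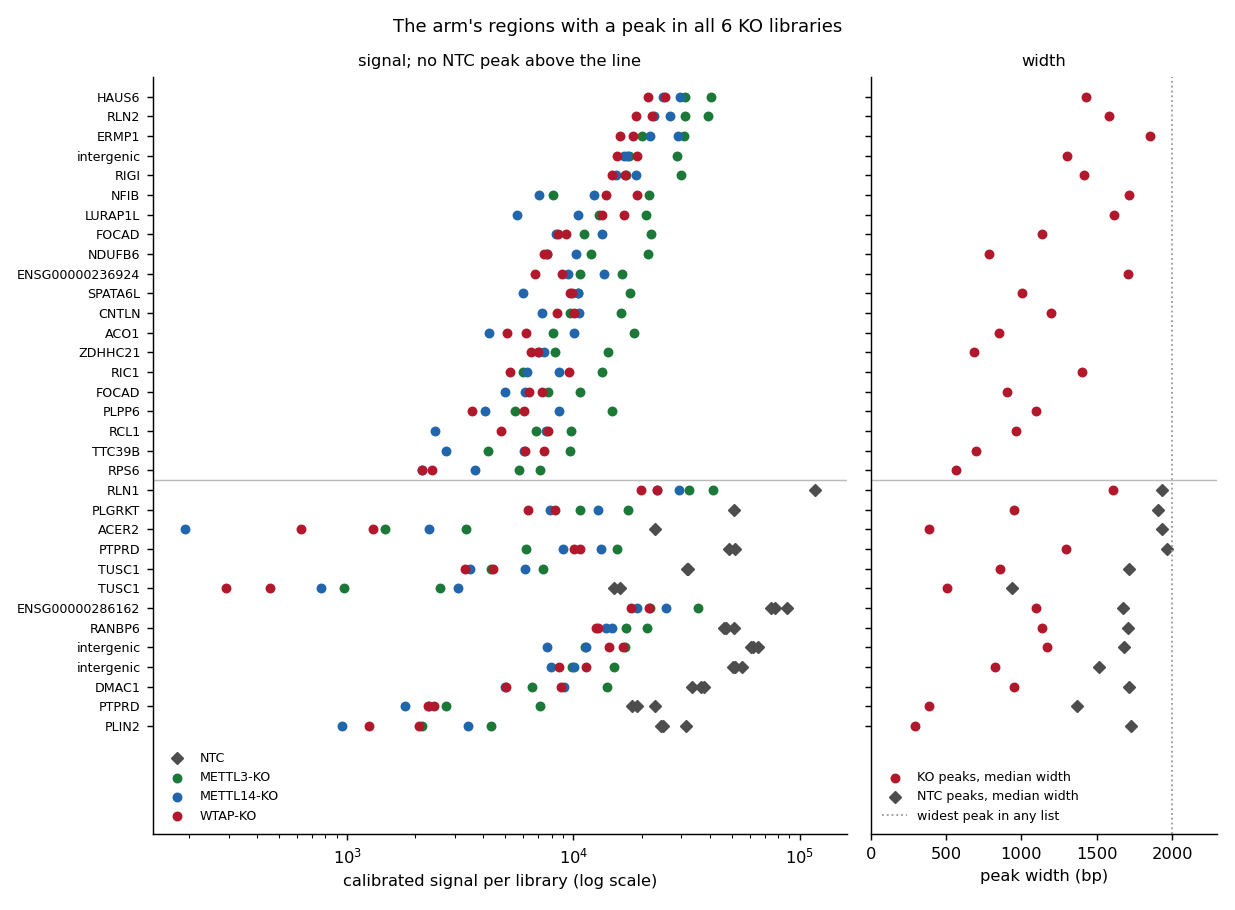
Signal per library on a log scale (left) and median peak width in bp (right) of the 33 arm regions with a peak in all 6 KO libraries, named by gene. The 20 regions above the line have no NTC peak, and in the 13 below it the listed NTC peaks are stronger and wider than the KO peaks.

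Presence also varied among the KO libraries. In 15 arm regions a KO library had a signal over 10000 while another KO library listed no peak, and all 15 lacked an NTC peak. The same count was not made over the genome, so it is not read as a trait of the arm. SNAPC3 encodes a subunit of a complex that binds the promoters of small nuclear RNA genes (chr9:15422286-15424279). It had 49649 in METTL3-KO 1, 0 in METTL3-KO 2, 0 and 27154 in METTL14-KO and 22699 and 27966 in WTAP-KO. Its listed peaks were up to 1994 bp wide. CD274, the gene of the immune checkpoint ligand PD-L1 (chr9:5449681-5451634), had 52454 and 35145 in METTL3-KO, 35839 and 31872 in METTL14-KO and 26912 and 0 in WTAP-KO, with listed peaks of 1803 to 1954 bp. The neighbouring intronic region of CD274, chr9:5452202-5453930, had NTC peaks of 12276 and 10915 in NTC 1 and NTC 2, none in NTC 3 and no KO peak. Replicates of 1 group thus had either a strong peak or none. PSIP1, the gene of a chromatin reader, had listed peaks of 810 to 1013 bp at chr9:15510906-15511918. Its signals there were 0 and 0 in METTL3-KO, 14648 and 0 in METTL14-KO and 0 and 10322 in WTAP-KO. A neighbouring PSIP1 region, chr9:15509584-15510746, had 7372 in METTL14-KO 1, 7561 in WTAP-KO 2 and no other peak. The marked stretch at PSIP1 was thus wider than its single listed peaks, and the part of the 2000 bp limit there was not tested.

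Only 7 arm regions were listed in all 9 libraries. The highest lay in an intron of the noncoding gene ENSG00000286162 (chr9:5608254-5609972), with NTC signals of 74957, 77945 and 87539, METTL3-KO signals of 35603 and 21782, METTL14-KO signals of 25678 and 19035 and WTAP-KO signals of 17996 and 21519. Every KO value was below every NTC value. The start of RANBP6, a gene of the importin family (chr9:6014687-6016619), had 46217, 47281 and 51158 in NTC and 12603 to 21094 in the 6 KO libraries, again without overlap. The start of PLIN2, which encodes a coat protein of lipid droplets (chr9:19126032-19127993), had 24297, 24978 and 31449 in NTC and 951 to 4301 in KO. The other 4 were 2 intergenic regions, the start of DMAC1, an assembly factor of respiratory complex I, and an intron of PTPRD, a receptor tyrosine phosphatase, and in each of them all KO values lay below all NTC values.

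Within these 7 regions the KO signal stayed higher, relative to the rest of the genome, in METTL14-KO and WTAP-KO than in NTC. The median signal of the 7 regions was 46217, 47281 and 51158 in NTC, 15172 and 9847 in METTL3-KO, 10018 and 7604 in METTL14-KO and 8611 and 11358 in WTAP-KO. The median of the 504 such regions in the rest of the genome was 15263, 14997 and 17663 in NTC, 4839 and 3061 in METTL3-KO, 2192 and 1263 in METTL14-KO and 912 and 1321 in WTAP-KO. The ratio of arm to rest was therefore 3.03, 3.15 and 2.90 in NTC and 3.14 and 3.22 in METTL3-KO, but 4.57 and 6.02 in METTL14-KO and 9.44 and 8.60 in WTAP-KO. NTC and METTL3-KO values overlapped, METTL14-KO values lay above both, and WTAP-KO values lay above those of METTL14-KO. With peaks below the median NTC peak signal dropped, 5 regions were left. Their mean ratio was 1.99 in NTC and 2.18 (SD 0.774) over the 6 KO libraries pooled, against 3.03 and 5.83 with every peak. Most of the gap between NTC and the pooled KO libraries was thus lost, and the KO groups were not separated in this setting. By the median of the mean NTC signal over regions listed in all 9 libraries the arm ranked 1 of 21 arms with at least 5 of them. Over the 162 arm regions listed in all 3 NTC libraries, whatever the KO libraries held, that median was 3376. It was 2964 in the rest of the genome, and the arm ranked 12 of 41.

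The arm's share of the peaks of a library was also higher in METTL14-KO and WTAP-KO than in NTC. Peaks on the arm were 0.985%, 0.971% and 0.994% of all peaks in NTC, 1.02% and 1.1% in METTL3-KO, 1.36% and 1.99% in METTL14-KO and 2.28% and 1.96% in WTAP-KO. The mean was 0.983% ± 0.0118 (SD, n = 3) in NTC and 1.62% ± 0.525 (SD, n = 6) over the KO libraries. All 6 KO values were above the 3 NTC values, and those of METTL14-KO and WTAP-KO overlapped. The number of arm peaks was lower in every KO library, with 213 to 216 in NTC, 96 and 101 in METTL3-KO and 63 to 72 in the other 4, so a larger share went with a smaller number. The median signal of an arm peak over that of a peak elsewhere was 0.924 to 1.14 in NTC and 0.958 and 1.07 in METTL3-KO, but 5.94 and 6.62 in METTL14-KO and 5.97 and 5.77 in WTAP-KO, each library taking its own listed peaks. In these last 4 libraries arm peaks were also wider, with medians of 742 to 856 bp against 323 to 351 bp elsewhere.

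**Figure D3:**
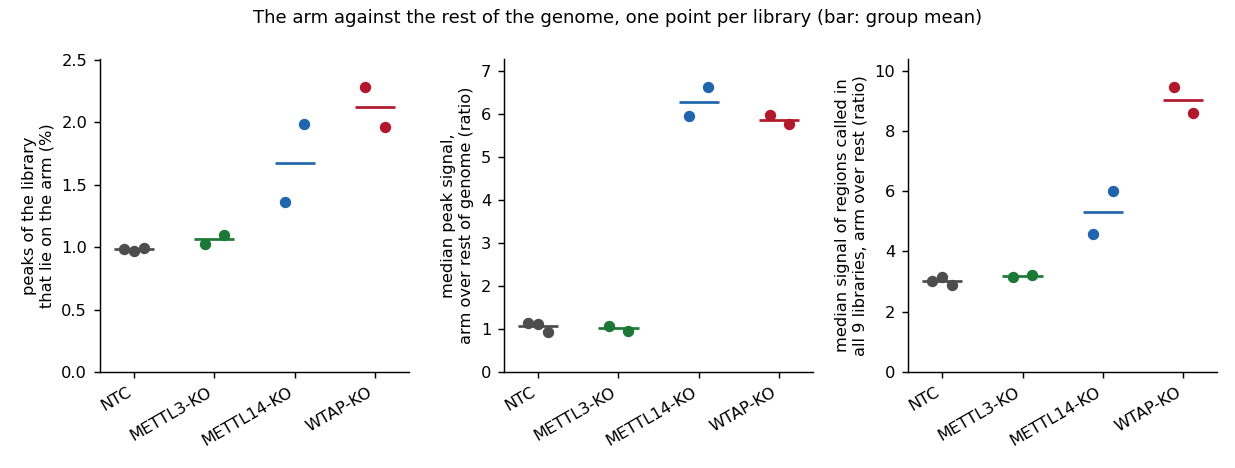
Share of each library's peaks on the arm in percent (left), median peak signal on the arm over the rest of the genome (middle) and the same ratio for regions listed in all 9 libraries (right), with 1 point per library and a bar at the group mean. NTC and METTL3-KO points lie together in the middle and right panels, and METTL14-KO and WTAP-KO points lie above them.

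Of the 162 arm regions listed in all 3 NTC libraries, most had no KO peak. A METTL3-KO peak was absent in 118 (72.8%, exact 95% interval 65.3 to 79.5), a METTL14-KO peak in 139 (85.8%, 79.5 to 90.8) and a WTAP-KO peak in 148 (91.4%, 85.9 to 95.2). Over the genome these shares were 71.4%, 87.3% and 92.9%, and each lay inside the arm's interval. No KO library listed a peak in 116 of the 162 (71.6%), against 71% over the genome, so the share of NTC regions lost on the arm was near the background.

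The strongest arm region listed in all NTC libraries and no KO library lay over an internal start of SMARCA2, an ATPase of the SWI/SNF chromatin remodeller (chr9:2156882-2158786), with 15088, 17743 and 20626 in NTC. Another start of the same gene showed the opposite, with no NTC peak and signals from 2990 to 9021 in 5 KO libraries (chr9:2017508-2019297). Next came a region inside PLIN2 (13356, 15339 and 17915 in NTC), one inside the noncoding gene ENSG00000291185 (14936, 13407 and 14388) and one inside TTC39B (11270, 11172 and 15143). Regions inside RCL1, which acts in ribosomal RNA processing (9543, 7752 and 9211), and inside MLLT3, a reader of acetylated histones in elongation complexes (8664, 8732 and 7615), and at chr9:28174-29053, 403 bp from a start of WASHC1, a gene of the WASH complex of endosomes (7365, 8644 and 5820), were also listed in NTC alone. The region over that WASHC1 start, chr9:29405-30602, had 11153, 11537 and 13996 in NTC and METTL3-KO peaks of 1466 and 337. Of the 10 such regions with the highest NTC signal only those of SMARCA2 and WASHC1 lay within 1 kb of an annotated start.

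Region signal was compared across all 24547 regions listed in at least 2 libraries with limma on a log2 scale, and a region was called at an adjusted p (Benjamini-Hochberg over all of them) under 0.05. On the arm 273 of the 331 regions passed this filter, and 65 of the 81 without an NTC peak. The comparisons with NTC share the same 3 control libraries and use the presence that chose the regions, so nothing is read from their counts. For all KO libraries against NTC, 187 arm regions were lower and 46 higher, against 76.7% lower and 12.2% higher over the genome. For METTL3-KO 160 were lower and 36 higher (62.4% and 11.2% over the genome), for METTL14-KO 162 and 32 (65.3% and 5.5%), and for WTAP-KO 162 and 43 (65.5% and 5.5%). As shares of the 273 these are 68.5% and 16.8%, 58.6% and 13.2%, 59.3% and 11.7%, and 59.3% and 15.8%. With libraries centred on the median of regions listed in all 9, the split moved to 141 lower and 72 higher for all KO libraries, 138 and 54 for METTL3-KO, 126 and 67 for METTL14-KO and 116 and 70 for WTAP-KO.

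The METTL3-KO signal was also set against the other knockouts together, and it differed at 32 of the 273 arm regions. In 24 of them (8.79%) the signal was higher in METTL3-KO, against 14.7% over the genome, and in 8 (2.93%) it was lower, against 0.668%. With centred libraries the split was 22 higher and 136 lower, so the direction of the split depended on the scaling. In all 8 regions lower in METTL3-KO both METTL3-KO libraries listed no peak, and in 15 of the 24 higher ones none of the other 4 KO libraries did. Of the 32 regions 16 passed the filter only through the side where they were high, so they had to differ, and their calls support nothing.

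The largest difference without overlap was at the start of CAAP1, an inhibitor of caspase activity (chr9:26891375-26893127). It was listed at 0 in both METTL3-KO libraries and had 15696 and 12380 in METTL14-KO and 9075 and 12767 in WTAP-KO, with no NTC peak. Another region of the gene, within 1 kb of a different start (chr9:26888268-26889054), had 2147, 2174 and 2895 in NTC and no KO peak. Neighbouring regions of MLLT3 followed, one in an intron and one within 1 kb of a start. The intronic one, chr9:20619376-20620414, had 5148 and 2952 in METTL14-KO and 3286 and 3602 in WTAP-KO, and was listed at 0 in METTL3-KO. Its neighbour at chr9:20620723-20621457 had 3714, 2017, 2242 and 1918 in these 4 libraries and was listed at 0 in METTL3-KO. Both were listed at 0 in NTC.

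In the other direction, TESK1, the gene of a kinase that acts on cofilin (chr9:35603604-35605279), had 10523, 9336 and 12028 in NTC, 1686 and 1119 in METTL3-KO and no peak in the other 4 libraries (limma, adjusted p = 2.8e-05). SMIM27, a small membrane protein gene (chr9:32550319-32550566), had 1368 and 937 in METTL3-KO and was listed at 0 in all other libraries. At all 5 regions one side of the comparison had no listed peak.

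Of 207 protein-coding genes on the arm, 120 were marked at a start (a peak no more than 1 kb away) in some library. A gene was counted as KO only when none of its starts had an NTC peak, which held for 34 (28.3%, against 15.2% of 12341 such genes elsewhere). For 33 (27.5%, against 37.7%) all 3 NTC libraries and at least 1 KO library had a peak, though at times in different regions, for 35 (29.2%, against 31.1%) all NTC and no KO library had one, and for 18 only 1 or 2 NTC libraries did.

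The genes were also grouped by role, with some genes in more than 1 list, and differences between lists were not tested. Of 22 immune and hormone genes and other neighbours of JAK2, 12 had a peak, 7 of them KO only: RLN2, CD274, AK3, KIAA2026, UHRF2, PLPP6 and SPATA6L. AK3 was listed in METTL14-KO 2 alone, at 1848. ERMP1 and RANBP6 had NTC and KO peaks, ERMP1 in separate regions, with 6973, 6708 and 6533 in NTC at one, and MLANA, a melanocyte antigen, had NTC peaks only. UHRF2, a ubiquitin ligase that binds methylated histones, was listed at 0 in NTC, METTL3-KO and METTL14-KO 1, and had 20402 in METTL14-KO 2 and 17553 and 19685 in WTAP-KO.

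Of 19 genes of chromatin and transcription 15 had a peak, and 7 were KO only, namely KDM4C, UHRF2, PSIP1, MLLT3, RFX3, SNAPC3 and ZBTB5. ZBTB5 was KO only through weak single peaks in separate regions, 393 in METTL3-KO 1 and 143 in METTL14-KO 1. KDM4C, a demethylase of histone H3, had 8805 in METTL14-KO 2 and 8077 and 8976 in WTAP-KO and was listed at 0 elsewhere. PAX5, the B cell factor, lost its NTC peaks of 1323, 1084 and 1232 in every KO library, as did NFX1 with 2124, 1547 and 2602. NFIB had a start with NTC signals of 12606, 9846 and 14982 and KO signals of 0 to 1255, and another start with no NTC peak and 16760 to 26298 in 5 KO libraries. The widest peaks of these 5 libraries at that other start were 1691 to 1964 bp wide, close to the end of the lists.

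Of 20 matched genes of ribosomes, RNA processing and protein folding, 17 had a peak, 4 of them KO only (RPS6, DCAF12, UBAP2 and RIGI) and 7 in both conditions. UBAP2 was KO only through weak single peaks in separate regions, 246 in METTL3-KO 1 and 176 in METTL3-KO 2. NOL6, a nucleolar protein, had 6822, 4963 and 8247 in NTC, 2559 and 1760 in METTL3-KO, 1741 and 808 in METTL14-KO and 0 in WTAP-KO. BAG1, a cochaperone whose region also covers the start of CHMP5, had 8671, 8961 and 10392 in NTC, peaks of 429 in METTL3-KO 2 and 316 in METTL14-KO 1, and none in the other 4 KO libraries. RMRP, a noncoding gene of this list, was not counted.

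All 6 genes of cell division and DNA repair had a peak. HAUS6 and CNTLN were KO only, the latter with 7224 to 16261 over the 6 KO libraries, and MELK, FANCG and APTX kept at least 1 KO peak. MELK, a kinase of dividing cells, had 6160, 7436 and 9566 in NTC and a single KO peak of 652, in METTL3-KO 2. Of 18 genes of metabolism and mitochondria, 15 had a peak: 4 KO only (AK3, ACO1, NDUFB6 and FOCAD), 3 in both conditions, 6 in NTC alone and 2 in 1 or 2 NTC libraries. AK3 had only the METTL14-KO 2 peak given above. ACO1, the iron-sensing aconitase, had 18447 and 8091 in METTL3-KO, 10054 and 4247 in METTL14-KO and 5084 and 6143 in WTAP-KO and no NTC peak. VLDLR, a lipoprotein receptor, had 2565, 2929 and 4131 in NTC and no KO peak. The lists were chosen with earlier results known, and their counts are descriptions.

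**Figure D4:**
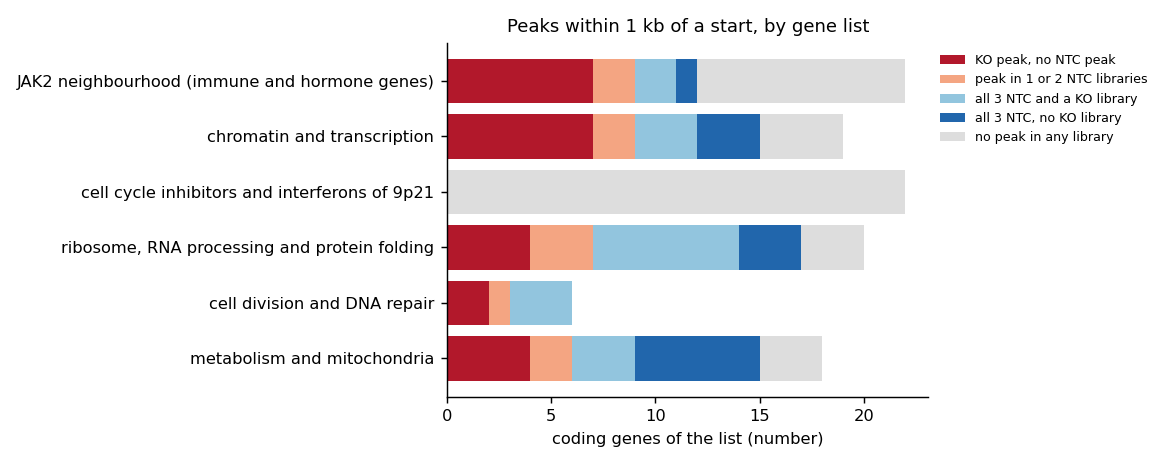
Number of coding genes of each list by where a peak lay within 1 kb of a start. The list of 22 cell cycle inhibitors and interferons has no peak in any library, while the 2 lists at the top have 7 KO-only genes each.

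None of the 22 genes of the list of cell cycle inhibitors and interferons was marked at a start by any library, among them CDKN2A, CDKN2B and MTAP, a methionine salvage enzyme. Between chr9:20692958-25676271 no library listed a peak, a stretch of 4.98 Mb with 24 coding genes. By the most coding genes in any one stretch without a peak the arm ranked 8 of 41, and a stretch on the long arm of chromosome 17 held 51 in 0.730 Mb. The arm's stretch was longer than those of the 7 arms ranked above it. Whether this DNA is present in these cells was not tested.

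JAK2 itself was marked at no annotated start. A single peak of 504 was listed in METTL3-KO 2 in its intron, 2706 bp from the canonical start. Upstream, 4 intergenic regions were listed in all NTC libraries and no KO library, namely chr9:4924142-4924529 (1240, 277 and 1964), chr9:4926352-4927805 (10119, 10739 and 10886), chr9:4938732-4939704 (5270, 3382 and 5819) and chr9:4964800-4966024 (11028, 8582 and 12474). Another, at -82338 bp from the start, chr9:4901185-4902934, had 62102, 60594 and 65724 in NTC and 7604 to 16959 in KO and was listed in all 9 libraries. The last of these was the region with the second highest mean NTC signal among those listed in all 9 libraries.

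The classes of arm regions differed in place and base composition. Of the 81 regions with a KO peak and no NTC peak 57 (70.4%) had an annotated start inside them or at most 1 kb away, against 78.6% of such regions in the rest of the genome. Of the 116 regions listed in all NTC libraries and no KO library 58 (50%) did, against 59.4%. The 20 regions of all 6 KO libraries had a median of 62.2% G or C in the 300 bases at their centre, against 55.7% for such regions elsewhere, and the 7 regions of all 9 libraries had 53.0%, against 57.7%.

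Short sequence motifs were searched in the same 300 bases on both strands. GATAA, the core of GATA factor sites, was found in 37.8% of arm regions and 30.8% of the others, CCACACCC, a site of KLF1 and related factors, in 4.23% and 2.93%, and CCGGAAG, a site of ETS factors, in 3.32% and 6.08%. CACGTG, the E-box of MYC and related factors, was found in 3.93% and 4.74%, and CCAAT in 35.6% and 30.1%. In the windows printed above CCGGAAG was found at HAUS6, CCACACCC at RLN2 and CCAAT at ERMP1, and none of the 5 at JAK2, SMARCA2 or the intronic region. These matches are descriptions of the letters only.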

How the data were processed

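H3K4me3 CUT&RUN peak lists of 9 HEL libraries were grouped by their labels. The authors aligned reads with Bowtie to hg19 and to yeast (sacCer3), calibrated to the yeast spike-in, removed duplicates with Picard and called peaks, listed here for each library on its own. Versions are not given in the sources used here. The deposited value of a peak is a calibrated signal, without counts. Positions were taken as 0-based in the lists, which the sources do not state, and are given from 1. Peaks sharing 1 bp were merged (pandas 2.3.3), and region signal was the sum over its peaks. The members and gene lists were chosen with earlier results of these data known.

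limma 3.58.1 (R 4.3.3) was fitted to log2(signal + 30.1) with 4 groups in 1 model, over regions listed in at least 2 libraries, with Benjamini-Hochberg adjustment over all of them. The pseudocount equals the lowest signal of any region, and differences of weak regions are understated on this scale. The fit was also run on simulated data with normal noise, which took their means and spreads from the fit itself. The simulated data held no unlisted peaks, so nothing is read from them. Named regions were the 10 highest by mean KO signal among those of all 6 KO and no NTC library, the 10 highest by mean NTC signal among those of all NTC and no KO library, those of all 9, JAK2 and the list genes, and the 5 with the largest METTL3-KO difference past the threshold and without overlap. Others were named after their values were seen. Arms were split at the centromere gap, the short arm of chromosome 9 ending at 39 Mb. Starts came from GENCODE lifted to hg19, sequences from the hg19 genome (samtools 1.23.1), and intervals are exact binomial. Alternatives covered the pseudocount, filters, merging, centring, the replicate block and each library. The labels name no batch. Part of the cell type marker list is not reported here.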

Additional observations from a re-analysis of the deposited data

Results flagged for a closer look

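The signal in METTL3-KO differed from that in METTL14-KO with WTAP-KO at 32 arm regions, by limma at an adjusted p under 0.05 over all regions. Of these 16 passed the filter only through the side where they were high, so they had to differ and their p-values support nothing. Among the regions named by rule, CAAP1 (limma, adjusted p = 7e-06) and both MLLT3 regions (limma, adjusted p = 1.5e-05 and 2.1e-05) were lower in METTL3-KO, and TESK1 (limma, adjusted p = 2.8e-05) and SMIM27 (limma, adjusted p = 1.7e-05) were higher. CAAP1, both MLLT3 regions and SMIM27 are among the 16, and at all 5 one side had no listed peak. The widest CAAP1 peak of each library that listed one was 1006 to 1753 bp wide, and the part of the 2000 bp width limit in their absence from METTL3-KO was not tested.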

How the results depend on the processing

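Of 190 recomputed values 169 stayed near the value reported, a count within 1.5 times, a share within its exact interval and a ratio within 1 SD. Some of these could not move, since leaving out a KO library leaves the NTC share of peaks unchanged. The SD for the KO ratio, 2.70, was taken over the 6 KO libraries pooled and is wide. The count of 169 is therefore no measure of how stable the results are. Dropping every peak weaker than the median NTC peak lowered the arm regions called against NTC to 138 with all KO libraries together, 118 in WTAP-KO, 114 in METTL14-KO and 104 in METTL3-KO, and to 6 for METTL3-KO against the other knockouts. It moved the NTC regions without a METTL3-KO peak to 89.5% and without a METTL14-KO peak to 91.9%, the share of peaks on the arm from 0.983% to 1.02% in NTC and from 1.62% to 4.11% in KO, and the mean signal ratio of regions listed in every library from 3.03 to 1.99 in NTC and from 5.83 to 2.18 in KO, over 5 regions. The cause was not tested. With regions listed in at least 3 libraries the METTL3-KO comparison with the other knockouts called 21 regions, and with centred libraries 158. Centring moved the median log2 difference of all regions by 3.02 with all KO libraries together, 3.8 in WTAP-KO, 3.23 in METTL14-KO and 2.04 in METTL3-KO, and by -1.47 for METTL3-KO against the others. The arm median for all KO libraries was -4.76 before and -1.73 after it, against -4.95 and -1.93 over all regions, and these values depend on the pseudocount. Ending the arm at the centromere gap gave 1.08% of NTC peaks. Among settings chosen after seeing the data, ending it at 33 Mb gave 32.2% of regions with a KO peak and no NTC peak, and regions at most 1 kb wide gave 20.6%.

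Leaving out each library in turn gave 200 to 227 arm regions for all KO libraries, 178 to 210 for METTL3-KO, 190 to 212 for METTL14-KO, 189 to 221 for WTAP-KO and 25 to 41 for METTL3-KO against the others. The share with a KO peak and no NTC peak was 23.3% to 27.1%. NTC regions without a peak were 72.6% to 79.6% (METTL3-KO), 84.6% to 93.8% (METTL14-KO) and 90.3% to 93.2% (WTAP-KO). The share of peaks was 0.978% to 0.990% in NTC and 1.49% to 1.74% in KO, and the signal ratio 2.35 to 3.15 in NTC and 4.60 to 6.37 in KO, where the set of regions listed in every library also changes. Where a group kept 1 library, that library was assumed to vary like the other groups.

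With the replicate number as a block the arm regions called were 220 for all KO libraries, 202 for METTL3-KO, 203 for METTL14-KO, 208 for WTAP-KO and 24 for METTL3-KO against the others, each within 1.5 times the count without the block (233, 196, 194, 205 and 32). The 12 same-numbered pairs had correlations of their deviations from -0.0688 to 0.0541, so the numbers did not pair the libraries. For all KO libraries, fitting only the groups compared is the same fit and gives no other value. Depth is unknown, so the rate at which weak peaks are missed may differ between libraries.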

Other observations

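At SMARCA2 and NFIB, different starts of the same gene gave opposite patterns of listed peaks, in regions picked after their values were seen. At SMARCA2 one start had no NTC peak and up to 9021 in KO, and an internal start had NTC signals of 15088, 17743 and 20626 and no KO peak. At NFIB one start had NTC signals of 12606, 9846 and 14982 and at most 1255 in KO, and another had no NTC peak and up to 26298 in KO. That other NFIB start was listed at 0 in METTL3-KO 1. Its widest peak in each KO library that listed one was 1691 to 1964 bp wide. A region without an NTC peak is not shown to lack the mark, and the part of the 2000 bp width limit was not tested. Some strong regions were listed in only part of the NTC libraries. A PTPRD intron had 48600 and 51596 in NTC 1 and NTC 2, none in NTC 3 and 6144 to 15519 in KO. Near the TUSC1 start the NTC signals were 31790, 32221 and 0, with 3306 to 7343 in KO. At the ACER2 start they were 0, 0 and 22935, with 191 to 3356 in KO. The listed NTC peaks were 1935 to 1996 bp wide at PTPRD, 1641 to 1792 bp near TUSC1 and 1934 bp at ACER2. The part of the 2000 bp width limit in the missing NTC peaks was not tested.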
